A study of Mus musculus with 6 samples.

Results

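The cadherins, catenins and claudins were followed in CD31+ckit+ cells sorted from the E10.5 aorta-gonad-mesonephros region (AGM), where hematopoietic cells emerge from the aortic endothelium. The members were the genes whose symbol is Cdh, Cldn or Ctnn (a, b or d) followed by a number, 52 of 24062 genes counted, and they comprised 22 cadherins, 6 catenins and 24 claudins. *Cdh5* and *Cldn5*, the main endothelial members of their families, are not among the 52 and are given once for comparison. RNA was sequenced from 3 libraries of CD31+ckit+Vmed cells and 3 libraries of CD31+ckit+Vhigh cells, with replicate numbers 1 to 3 in each fraction. All embryos carried the Gata2Venus reporter on 1 allele (G2V/+, C57BL/6JOlaHsd background), in which Venus is made from the *Gata2* transcript behind an internal ribosome entry site, so that the fractions differ in Venus fluorescence and not in genotype. All cells carried the same surface markers by the sort, CD31 (encoded by *Pecam1*) and ckit (encoded by *Kit*). The question of the comparison was how the junction genes differ between cells with an intermediate and cells with a high level of the reporter. How many embryos were pooled for a library is not given in the sources used here.

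Cadherins are transmembrane proteins that bind the same kind of cadherin on a neighboring cell and so hold cells together at adherens junctions. Inside the cell, β-catenin (*Ctnnb1*) and p120-catenin (*Ctnnd1*) bind the cadherin tail, and α-catenin (*Ctnna1*) links β-catenin to actin. β-catenin that is not at the membrane acts in the nucleus with TCF and LEF factors in Wnt signaling. Claudins form the strands of tight junctions, which seal the space between epithelial or endothelial cells. Hemogenic endothelium is bound into the aortic wall by such junctions, and a cell that buds into the lumen loses part of its contacts.

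The libraries held 8296831 to 12035206 counts on genes, so that 3 counts corresponded to 0.249 to 0.362 CPM. CPM are the counts of a gene scaled to the same total for all gene counts of a library, and RPKM are CPM per kilobase of exons. The Vhigh replicate 2 library stood apart, with 18460 genes at 1 or more counts and 1.56 alignments outside genes per gene count. This ratio went with the replicate number in both fractions. It was 0.664, 0.978 and 0.184 in Vmed replicates 1 to 3, and 0.648, 1.56 and 0.158 in Vhigh replicates 1 to 3. The Vhigh replicate 1 library stood at the other end, with 10427 genes at 1 or more counts. Both sorting markers were found in every library, and 15 to 18 of 18 endothelial markers and 14 to 16 of 16 hematopoietic stem and progenitor markers had 3 or more counts. The log2 fold change (Vhigh over Vmed) was below 0 for 17 of the 18 endothelial markers (median -0.76) and above 0 for all 16 hematopoietic markers (median 1.41). The endothelial sum was 1932 to 7303 CPM in Vmed and 1434 to 4981 CPM in Vhigh, and the hematopoietic sum 725 to 1813 and 1747 to 4337 CPM. *Kit* itself had 59.1 to 207.5 CPM in Vmed and 254.5 to 521 CPM in Vhigh, and the part of these shifts in the members' differences was not tested. Markers of other cell types were found as well and differed between the fractions. The summed level of 16 mesenchyme and mural genes was 2633 to 5550 CPM in Vmed and 381 to 833.5 CPM in Vhigh. That of 12 macrophage genes was 1024 to 1882 and 143 to 558 CPM, and that of 12 megakaryocyte genes was 622 to 1348 and 335 to 423 CPM. In sorted populations, fewer cells of a type and less RNA per cell cannot be told apart.

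In edgeR's quasi-likelihood test, 0 of the 22 members that passed the filter on low counts had an adjusted p under 0.05, and the percentage over all 12688 genes tested was 0. The adjusted p was 0.9998 for each tested member. At an unadjusted p under 0.05, 2 members were lower in Vhigh, *Cdh11* and *Ctnna1*, beside 1.17% of all genes, and 0 members were higher, beside 0.867% of all genes. The DESeq2 Wald test gave 1 member with an adjusted p under 0.05, *Cdh11*, beside 0.409% of all genes. In 4 members (*Cdh3*, *Cdh6*, *Cdh11* and *Cldn6*) every Vhigh library lay below every Vmed library, beside 4.71% of all genes. Without Vmed replicate 1 there were 9 such members, beside 9.84% of all genes. No tested member had every Vhigh library above every Vmed library, beside 4.15% of all genes. The log2 fold change (Vhigh over Vmed) was below 0 for 20 of the 22 members, beside 51.1% of all genes. Its median was -0.93 over the 22 members and -0.02 over all genes tested. These counts and medians cover only the members that passed the filter. All 22 had 10 or more counts in at least 1 Vhigh library, but 14 of them were at 0 in at least 1 library. The filter asks for a minimum level in as many libraries as a fraction holds, so Vmed libraries alone can suffice. *Cdh6* (166, 37 and 147 counts in Vmed, 1, 14 and 0 in Vhigh) and *Cldn6* (148, 108 and 253, then 0, 4 and 63), among others, passed through Vmed. Their sign and lack of overlap are thus not independent of the filter. *Cdh12*, with 90, 82 and 0 counts in Vhigh, did not pass. Over all 52 members, the mean CPM was lower in Vhigh for 28, higher for 22 and equal for 2. Between same-numbered libraries, 23 were lower and 8 higher in Vhigh for number 1, and 17 and 11 for number 3. For number 2, which includes the Vhigh library with the most genes, 20 were lower and 27 higher.

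**Figure D1:**
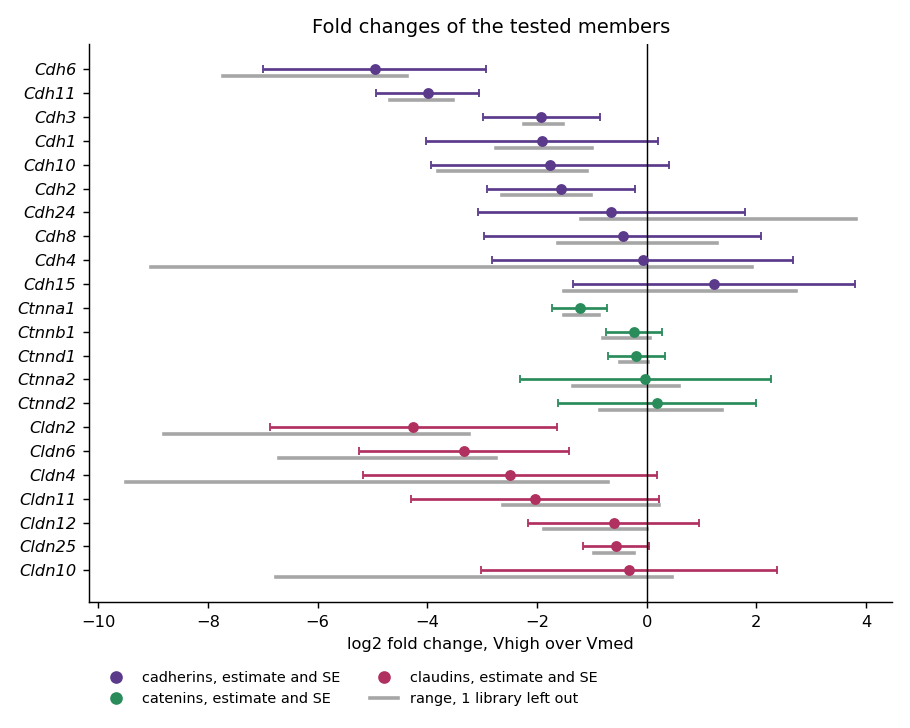
Log2 fold change (Vhigh over Vmed) of the 22 tested members from edgeR's quasi-likelihood fit, with standard errors as bars, colored by family. The gray line under each point spans the estimates from fits without 1 of the libraries. *Cdh11* and *Ctnna1* have short bars away from 0, whereas *Cdh4* and *Cldn4* range over several units when a single library is removed.

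Promoter sequences are shown for *Cldn6* and *Cdh6*, which did not overlap between the fractions, and for *Cldn4*, which overlapped, because its window held both of the motifs searched. They run from 250 bases before to 50 bases after a RefSeq start site of GRCm38.p6, 5′ to 3′ on the strand of the gene. Capitals mark 2 kinds of short motif, searched on both strands: the E2-box CACCTG and its reverse complement CAGGTG, which repressors such as SNAI1 and ZEB1 are known to bind, and the GATA motif AGATAA, in which the first base could also be T and the last also G and which GATA factors are known to bind. No match of one motif overlapped a match of the other in these 3 sequences. *Cldn6* lies at chr17:23679115-23679414 (plus strand), *Cldn4* at chr5:134946885-134947184 (minus strand) and *Cdh6* at chr15:13173626-13173925 (minus strand).
Cldn6: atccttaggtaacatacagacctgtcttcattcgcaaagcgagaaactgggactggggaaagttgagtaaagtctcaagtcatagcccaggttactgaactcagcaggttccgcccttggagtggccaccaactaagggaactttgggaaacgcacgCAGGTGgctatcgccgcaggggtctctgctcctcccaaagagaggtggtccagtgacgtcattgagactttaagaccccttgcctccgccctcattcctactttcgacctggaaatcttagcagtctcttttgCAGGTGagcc
Cldn4: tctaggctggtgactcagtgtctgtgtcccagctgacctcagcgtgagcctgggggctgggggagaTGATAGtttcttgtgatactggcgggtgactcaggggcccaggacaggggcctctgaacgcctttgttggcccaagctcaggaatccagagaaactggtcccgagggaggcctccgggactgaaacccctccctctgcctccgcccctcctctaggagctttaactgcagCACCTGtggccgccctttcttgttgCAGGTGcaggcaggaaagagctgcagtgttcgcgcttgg
Cdh6: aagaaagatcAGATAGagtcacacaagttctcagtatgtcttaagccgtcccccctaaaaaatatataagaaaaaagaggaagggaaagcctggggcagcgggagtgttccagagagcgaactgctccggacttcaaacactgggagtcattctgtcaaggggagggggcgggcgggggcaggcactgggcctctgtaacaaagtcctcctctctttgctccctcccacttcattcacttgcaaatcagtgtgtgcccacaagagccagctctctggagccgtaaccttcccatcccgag
The *Cldn6* window held 2 E2-boxes, 1 on each side of the start site, and 0 GATA motifs. The *Cldn4* window held 2 E2-boxes around the start site and 1 GATA motif upstream of them. The *Cdh6* window held 1 GATA motif near its 5′ end and 0 E2-boxes. Of the 52 members, 36 matched the RefSeq promoter table, and *Cdh3*, *Cdh11* and *Ctnna1* were not among them. An E2-box was in a promoter of 7 of them (19.4%), beside 22.6% of all 27025 genes of the table, and a GATA motif was in a promoter of 13 (36.1%), beside 33% of all genes. The members' shares of both motifs thus lay near those of all promoters, and a match of these letters is no more than a description.

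The largest difference in CPM among cadherins was in *Cdh11*, which encodes OB-cadherin, a type II cadherin known from mesenchyme and bone-forming cells. *Cdh11* occupies positions 102632095 to 102785642 of chromosome 8 in GRCm38. Its level was 115, 68.2 and 62.4 CPM in Vmed replicates 1, 2 and 3, and 1.13, 5.80 and 9.22 CPM in Vhigh replicates 1, 2 and 3. The highest Vhigh library was thus well under the lowest Vmed library. The mean was 81.9 ± 29.0 CPM (SD, n = 3) in Vmed and 5.38 ± 4.07 CPM (SD, n = 3) in Vhigh. The log2 fold change was -3.99 ± 0.94 (SE; unadjusted p = 0.003456, edgeR quasi-likelihood). The exact two-sided permutation test gave p = 0.1 for each of *Cdh3*, *Cdh6*, *Cdh11* and *Cldn6*, the smallest value that 3 libraries against 3 can give. Its adjusted p was 0.003085 in DESeq2, 0.9998 in edgeR's quasi-likelihood test, 0.9999 in limma-voom and 0.07196 in the likelihood ratio test with the replicate number as a block. The unadjusted p of *Cdh11* was under 0.05 in all 18 fits that were made, and its log2 fold change stayed between -4.69 and -3.53 whichever library was left out.

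Like *Cdh11*, the markers of mesenchyme were lower in Vhigh than in Vmed. Within each fraction the libraries did not follow this order, as the library with the most *Cdh11* had the lowest summed list in Vmed, and likewise in Vhigh. All 16 genes of the mesenchyme and mural list were read, 15 were tested, and 14 of these had a log2 fold change below 0, with a median of -2.63. The 2 genes of the list with the highest level were *Lum*, an extracellular matrix proteoglycan, with a log2 fold change of -4.20 ± 0.67 (SE), and *Col3a1*, a fibrillar collagen, with -2.53 ± 0.59 (SE). None of the list was at 0 in all 6 libraries. For each 1000 CPM of the summed list, *Cdh11* had 43.8, 13.7 and 11.2 CPM in Vmed replicates 1 to 3 and 1.35, 8.40 and 24.2 CPM in Vhigh replicates 1 to 3. Per mesenchyme signal, therefore, the *Cdh11* values of the fractions overlapped, and the part of mesenchymal cells in the result was not tested.

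*Cdh6*, which encodes K-cadherin, a type II cadherin known from kidney and neural crest, occupies positions 13028701 to 13173675 of chromosome 15 in GRCm38. It had 19.0, 4.46 and 15.1 CPM in Vmed replicates 1 to 3 and 0.0938, 1.29 and 0 CPM in Vhigh replicates 1 to 3. In the Vhigh libraries this corresponds to 1, 14 and 0 counts, at or under the floor of 3 counts in 2 of them. The log2 fold change was -4.96 ± 2.02 (SE; unadjusted p = 0.06030, edgeR quasi-likelihood) and stayed between -7.73 and -4.36 over fits without 1 library. For each 1000 CPM of the epithelium markers, *Cdh6* had 15.1 to 53.7 CPM in Vmed and 0 to 6.11 CPM in Vhigh, with no overlap. Set against the mesenchyme and mural list, however, the fractions overlapped. In replicate 2, *Cdh6* had 4.46 CPM beside a list sum of 4982 CPM in Vmed, and 1.29 CPM beside 690 CPM in Vhigh. By this measure it stayed lower in Vhigh in pairs 1 and 3. In replicate 1 it had 19.0 CPM beside 2633 CPM in Vmed and 0.0938 CPM beside 833.5 CPM in Vhigh. In replicate 3 it had 15.1 CPM beside 5550 CPM and 0 CPM beside 381 CPM. The part of other cell types in the result was not tested.

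The other type II cadherins were low and uneven. *Cdh10* had 2.17, 11.4 and 10.6 CPM in Vmed and 5.54, 1.29 and 0 CPM in Vhigh, with a log2 fold change of -1.76 ± 2.17 (SE). *Cdh24* had 15.5 CPM in Vmed replicate 3 and under 0.25 CPM in the other Vmed libraries, against 0, 5.89 and 5.24 CPM in Vhigh. *Cdh8* ranged from 0 to 7.09 CPM in Vmed and from 0 to 4.74 CPM in Vhigh. *Cdh12*, which did not pass the filter, had 2, 2 and 0 counts in Vmed and 90, 82 and 0 counts in Vhigh. Its Vhigh replicates 1 and 2 were thus above every Vmed library, and its replicate 3 was at 0 in both fractions. Summed over the 12 type II cadherins, the level was 144, 87.9 and 103.7 CPM in Vmed and 15.4, 27.8 and 19.2 CPM in Vhigh, of which *Cdh11* made 60.2 to 80.0% in Vmed and 7.32 to 48.1% in Vhigh.

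Among type I cadherins, *Cdh3* was lower in Vhigh in every pair. It encodes P-cadherin, known from epithelia and placenta, and occupies positions 106510891 to 106557297 of chromosome 8 in GRCm38. *Cdh3* had 56.2, 28.2 and 37.8 CPM in Vmed and 11.9, 17.4 and 4.57 CPM in Vhigh, with no overlap between the fractions. The log2 fold change was -1.92 ± 1.07 (SE; unadjusted p = 0.1115, edgeR quasi-likelihood). *Cdh1*, which encodes E-cadherin of epithelia, lies 46054 bp downstream of *Cdh3* on the same strand. It had 0.801, 22.7 and 10.8 CPM in Vmed and 0, 3.59 and 5.73 CPM in Vhigh, lower in Vhigh in 3 of 3 pairs, but the fractions overlapped (log2 fold change -1.91 ± 2.12, SE). The neighbors also differed in their spread, as *Cdh1* was at or near 0 in both libraries numbered 1, where *Cdh3* was read at 491 and 127 counts.

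*Cdh2*, which encodes N-cadherin of mesenchyme, nerve and endothelium, was the remaining type I cadherin read in all libraries. It had 10.1, 41.0 and 47.4 CPM in Vmed and 0.938, 10.3 and 23.2 CPM in Vhigh. *Cdh2* was lower in Vhigh in 3 of 3 pairs, with a log2 fold change of -1.55 ± 1.35 (SE; unadjusted p = 0.2860, edgeR quasi-likelihood). For each 1000 CPM of the mesenchyme and mural list, *Cdh2* had 3.82, 8.23 and 8.53 CPM in Vmed replicates 1 to 3. In Vhigh replicates 1 to 3 it had 1.13, 14.9 and 60.8 CPM, and so was higher in Vhigh in pairs 2 and 3 by this measure. *Cdh4*, which encodes R-cadherin, had 3.20, 17.7 and 0 CPM in Vmed and 0, 22.3 and 0 CPM in Vhigh, and so was read mainly in the 2 libraries numbered 2. *Cdh15*, known from muscle, had a log2 fold change of 1.23 ± 2.56 (SE) and was the only tested cadherin with an estimate above 0 over all 6 libraries, for which it is named after its value was seen. Without Vhigh replicate 1 its estimate turned to -1.51.

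Like *Cdh1*, *Cdh2* and *Cdh3*, most epithelial markers tested were lower in Vhigh. Within Vmed the order differed, as *Cdh1* was highest in replicate 2, where the summed epithelium list was lowest. Of 18 genes of the mesonephric and other epithelium list, 14 were tested and 11 had a log2 fold change below 0, with a median of -2.07. Its summed level was 295 to 437 CPM in Vmed and 124 to 211 CPM in Vhigh. The keratin genes *Krt18* and *Krt8* were its highest members, at 100.4 to 118 and 26.1 to 123.4 CPM in Vmed and at 55.1 to 100.4 and 4.03 to 23.6 CPM in Vhigh. *Lhx1* and *Wnt9b*, which mark the mesonephric duct, were at 0 in all Vhigh libraries and were read in 1 Vmed library each, and *Epcam* ranged from 0.229 to 10.6 CPM in Vmed and from 0 to 15.9 CPM in Vhigh. For each 1000 CPM of the list, *Cdh3* had 159, 95.7 and 86.5 CPM in Vmed replicates 1 to 3. In Vhigh replicates 1 to 3 it had 96.4, 82.4 and 30.1 CPM, so that the fractions overlapped, though it was lower in Vhigh in every pair. The part of epithelial cells in the result was not tested.

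Summed over all 22 cadherins, the level was 218.5, 199.8 and 200.6 CPM in Vmed and 37.0, 96.8 and 54.0 CPM in Vhigh. The mean was 206 ± 10.6 CPM (SD, n = 3) in Vmed and 62.6 ± 30.8 CPM (SD, n = 3) in Vhigh, a log2 ratio of -1.72. Without *Cdh11* the log2 ratio was -1.12, so that *Cdh11* alone held a large part of the difference. *Cdh5*, which encodes VE-cadherin, had 97.5, 361 and 274.5 CPM in Vmed and 56.7, 145 and 146 CPM in Vhigh. It was lower in Vhigh in 3 of 3 pairs. Its log2 fold change was -1.12 ± 0.59 (SE; unadjusted p = 0.08957, edgeR quasi-likelihood). With the replicate block it was -1.04 ± 0.30 (SE; unadjusted p = 0.01425 and adjusted p = 0.9872, edgeR quasi-likelihood). Of all cadherin counts with *Cdh5* included, *Cdh5* made 30.8, 64.4 and 57.8% in Vmed and 60.5, 59.9 and 73.0% in Vhigh. In Vmed replicate 1, *Cdh11* exceeded *Cdh5*, with 36.5% of these counts, and in the other libraries *Cdh5* was the cadherin with the most counts.

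**Figure D2:**
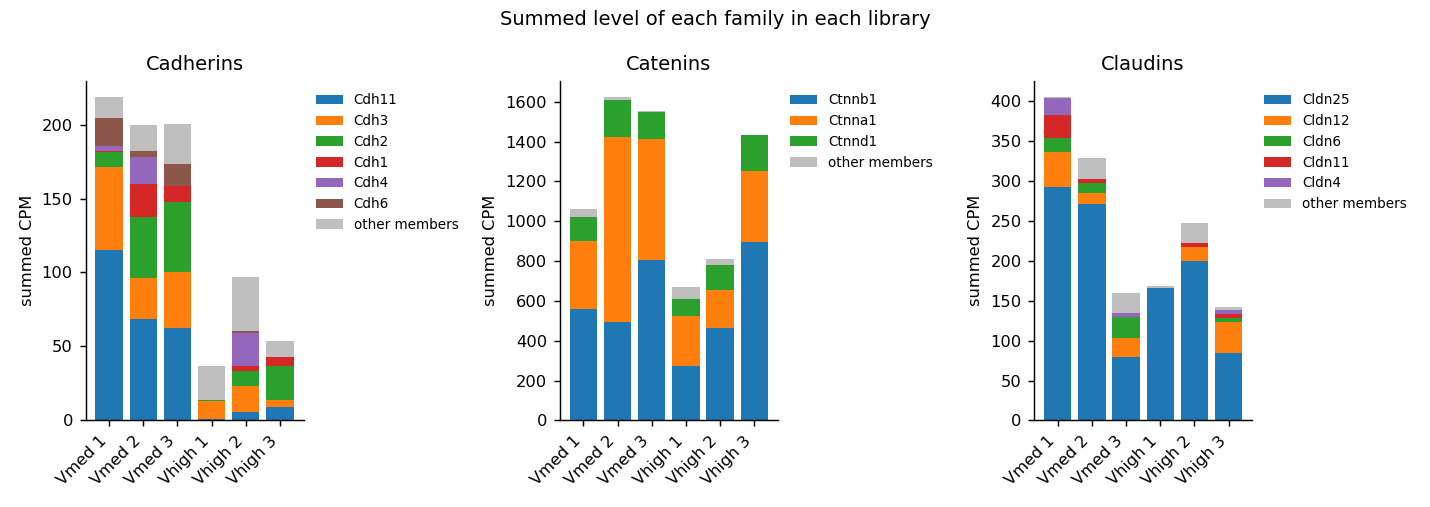
Summed CPM of each family in the 6 libraries, stacked by gene, with the remaining members in gray. The cadherin bars of Vmed (about equal, at 199.8 to 218.5 CPM) lose the *Cdh11* segment almost entirely in Vhigh, whereas *Ctnnb1* and *Cldn25* make up most of the catenin and claudin bars in both fractions in most libraries.

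The catenins *Ctnnb1* and *Ctnna1* were the members with the highest mean RPKM in both fractions. *Ctnnb1*, at positions 120929216 to 120960507 of chromosome 9 in GRCm38, had 558, 495 and 805.5 CPM in Vmed and 271, 462 and 897 CPM in Vhigh. These ranges overlapped widely, the lowest and the highest value both being Vhigh, and the log2 fold change was -0.23 ± 0.52 (SE). *Ctnnd1* had 122, 184.5 and 136 CPM in Vmed and 83.0, 128 and 185 CPM in Vhigh, with a log2 fold change of -0.19 ± 0.52 (SE). The estimates of both genes turned above 0 without Vhigh replicate 1, to 0.065 and 0.017. Neither gene differed beyond the spread between libraries.

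*Ctnna1* had the largest log2 fold change among the 5 catenins tested. It had 341, 930.2 and 606 CPM in Vmed and 255, 192 and 353 CPM in Vhigh, lower in Vhigh in 3 of 3 pairs. The highest Vhigh library was slightly above the lowest Vmed library. The mean was 626 ± 295 CPM (SD, n = 3) in Vmed and 267 ± 81.3 CPM (SD, n = 3) in Vhigh. Its log2 fold change was -1.22 ± 0.50 (SE; unadjusted p = 0.03581, edgeR quasi-likelihood), and the exact two-sided permutation test gave p = 0.2. The unadjusted p was under 0.05 in 14 of 18 fits, and the log2 fold change stayed between -1.50 and -0.87 over fits without 1 library. For each 1000 CPM of the endothelial list, *Ctnna1* had 177, 178 and 83.0 CPM in Vmed replicates 1 to 3. In Vhigh replicates 1 to 3 it had 178, 102 and 70.9 CPM, so that the fractions overlapped by this measure. The part of endothelial cells in the result was not tested. Exons of *Ctnna1* overlap the gene *Lrrtm2* on the opposite strand, and those of *Ctnnb1* overlap *Ulk4*. The strand setting of the counting is not given in the sources used here, so reads of such partners cannot be told apart.

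Per kilobase of exons, *Ctnna1* stood in a variable ratio to *Ctnnb1*. The log2 ratio of their RPKM was -1.02, 0.603 and -0.718 in Vmed and -0.395, -1.57 and -1.65 in Vhigh. Its mean was 0.83 lower in Vhigh, which is within the spread (exact two-sided permutation test, p = 0.3). The log2 ratio of *Ctnnd1* to *Ctnnb1* was -2.56 ± 0.58 (SD, n = 3) in Vmed and -2.44 ± 0.30 (SD, n = 3) in Vhigh. The mean log2 ratio of *Ctnna1* to *Ctnnd1* was 2.18 in Vmed and 1.23 in Vhigh (exact two-sided permutation test, p = 0.2).

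The catenins of nerve and other tissues were low. *Ctnnd2*, δ-catenin of neurons, had 36.0, 8.80 and 6.90 CPM in Vmed and 37.7, 22.6 and 0 CPM in Vhigh. *Ctnna2*, αN-catenin, had 4.69, 3.38 and 0.721 CPM in Vmed and 5.91, 2.67 and 0 CPM in Vhigh, a log2 fold change of -0.02. *Ctnna3*, αT-catenin of heart, which did not pass the filter, had 5, 7 and 0 counts in Vmed and 202, 21 and 0 counts in Vhigh. All 3 genes were at 0 in Vhigh replicate 3 and highest in Vhigh replicate 1.

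**Figure D3:**
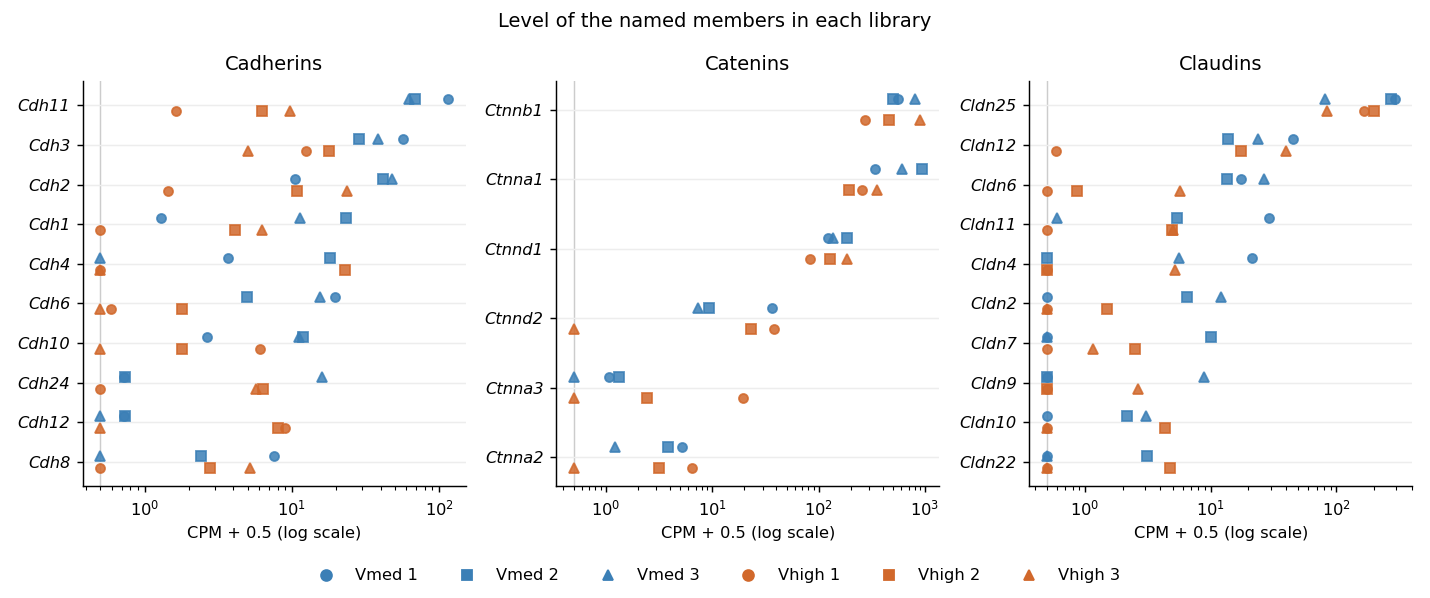
Level of each named member in each library as CPM plus 0.5 on a log scale, by family, with blue for Vmed, orange for Vhigh and marker shapes for replicate numbers 1 to 3. Points on the gray line had 0 counts. For *Cdh11*, *Cdh3*, *Cdh6* and *Cldn6* all orange points lie left of all blue points, and for the other genes the colors mix.

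Among claudins, *Cldn6* differed most clearly between the fractions. It encodes a claudin known from embryonic epithelia and pluripotent cells, and occupies positions 23679249 to 23682446 of chromosome 17 in GRCm38. *Cldn6* had 16.9, 13.0 and 26.0 CPM in Vmed and 0, 0.368 and 5.24 CPM in Vhigh, that is 0, 4 and 63 counts in Vhigh. It was lower in Vhigh in 3 of 3 pairs, with no overlap. The mean was 18.7 ± 6.68 CPM (SD, n = 3) in Vmed and 1.87 ± 2.92 CPM (SD, n = 3) in Vhigh. The log2 fold change was -3.33 ± 1.91 (SE; unadjusted p = 0.1408, edgeR quasi-likelihood) and stayed between -6.69 and -2.75 over fits without 1 library. Its neighbor *Cldn9*, which ends 138 bp away on the opposite strand, had 81 counts in Vmed replicate 3, 26 in Vhigh replicate 3 and 0 elsewhere. For each 1000 CPM of the epithelium markers, *Cldn6* had 44.2 to 59.6 CPM in Vmed and 0, 1.74 and 34.5 CPM in Vhigh, with no overlap. Set against the mesenchyme and mural list, however, the fractions overlapped. In replicate 3, *Cldn6* had 26.0 CPM beside a list sum of 5550 CPM in Vmed, and 5.24 CPM beside 381 CPM in Vhigh. By this measure it stayed lower in Vhigh in pairs 1 and 2. In replicate 1 it had 16.9 CPM beside 2633 CPM in Vmed and 0 CPM beside 833.5 CPM in Vhigh. In replicate 2 it had 13.0 CPM beside 4982 CPM and 0.368 CPM beside 690 CPM. The part of other cell types in the result was not tested. Of 19 primordial germ cell markers, the summed level was 69.9 to 86.8 CPM in Vmed and 25.9 to 110 CPM in Vhigh, and none of them was at 0 in all 6 libraries.

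The other epithelial claudins were read in some libraries only. *Cldn4* had 20.9, 0 and 5.15 CPM in Vmed and 0, 0 and 4.74 CPM in Vhigh, with a log2 fold change of -2.48 ± 2.68 (SE). *Cldn2*, a pore-forming claudin, had 0, 6.03 and 11.6 CPM in Vmed and 0, 1.01 and 0 CPM in Vhigh, with a log2 fold change of -4.26 ± 2.62 (SE). *Cldn7* was highest in Vmed replicate 2, at 9.64 CPM, and was at 0 in the other Vmed libraries. *Cldn10* and *Cldn22* did not exceed 4.24 CPM, and exons of *Cldn22* and of *Wwc2* overlap on opposite strands. *Cldn11*, a claudin of myelin and testis, had 28.8, 4.94 and 0.103 CPM in Vmed and 0, 4.42 and 4.57 CPM in Vhigh. The difference of *Cldn11* rests on Vmed replicate 1, without which its log2 fold change turned from -2.03 to 0.22.

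*Cldn12*, a broadly expressed claudin, had 44.7, 13.3 and 23.2 CPM in Vmed and 0.0938, 17.0 and 39.2 CPM in Vhigh. It was higher in Vhigh in pairs 2 and 3 and at 1 count in Vhigh replicate 1. The row named *Cldn25* held most claudin counts, with 292, 272 and 80.1 CPM in Vmed and 166, 200.3 and 84.2 CPM in Vhigh. Its log2 fold change was -0.56 ± 0.59 (SE). The symbol is an older name of both *Cldnd1*, a claudin domain protein, and the pseudogene *Cldn25-ps*. As *Cldnd1* has no row of its own in these counts, which of them the row counts was not settled, and it has no length or position here. Its lowest level in each fraction was in the library numbered 3.

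Summed over the 24 claudins, the level was 298 ± 126 CPM (SD, n = 3) in Vmed and 186 ± 55.2 CPM (SD, n = 3) in Vhigh, a log2 ratio of -0.68. Without *Cldn25*, the 23 others summed to 113, 57.0 and 79.4 CPM in Vmed and 2.81, 47.9 and 57.8 CPM in Vhigh, a log2 ratio of -1.20. The Vhigh replicate 1 library was far below the others. *Cldn5*, the claudin of endothelial tight junctions, showed the same low library. It had 102, 101.5 and 579 CPM in Vmed and 0.188, 40.7 and 356 CPM in Vhigh (log2 fold change -1.003 ± 1.486, SE). *Cldn5* was lower in Vhigh in 3 of 3 pairs, yet its range overlapped between the fractions. Its estimate was -2.56 with the replicate block, and turned to 0.38 without Vmed replicate 3.

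**Figure D4:**
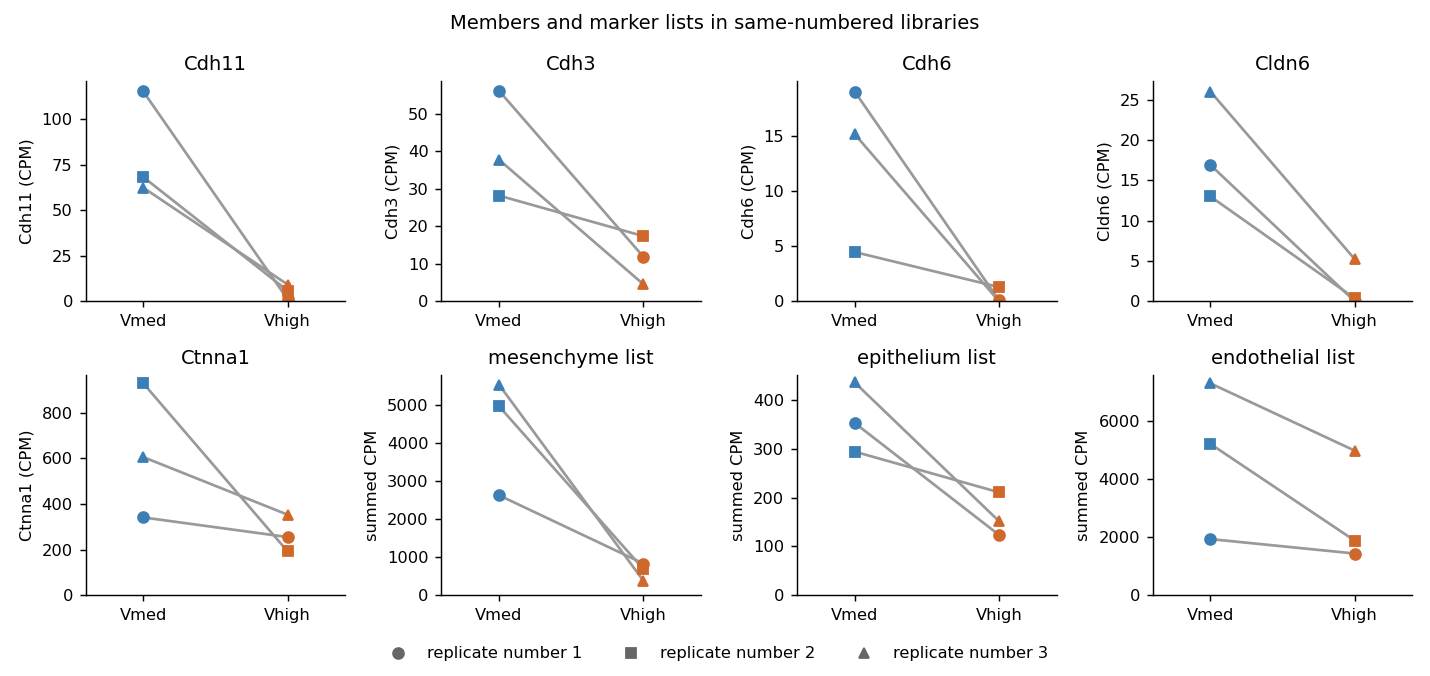
CPM of 5 members and summed CPM of 3 marker lists, with a line joining libraries of the same replicate number and shapes for the numbers 1 to 3. All lines fall from Vmed to Vhigh, those of the mesenchyme list from 2633 to 5550 CPM in Vmed to 381 to 833.5 CPM in Vhigh.

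Ordered by mean RPKM, the 10 highest members with a length were *Ctnnb1*, *Ctnna1*, *Ctnnd1*, *Cldn6*, *Cdh3*, *Cldn12*, *Cdh11*, *Cldn11*, *Cldn4* and *Cdh2*. The means were 119 RPKM in Vmed and 105 RPKM in Vhigh for *Ctnnb1*, 97.4 and 41.5 RPKM for *Ctnna1*, and 20.1 and 18.1 RPKM for *Ctnnd1*. The RPKM of *Ctnnb1* and *Ctnna1* overlapped between libraries, so their order is not fixed by these data, whereas *Ctnnd1* was below both in every library. For *Cldn6*, *Cdh3* and *Cdh11* the mean RPKM was 10.8, 9.29 and 9.20 in Vmed, which did not differ beyond their spread, and 1.09, 2.58 and 0.605 in Vhigh. *Cldn5* and *Cdh5*, at 184 and 58.1 RPKM in Vmed and 93.5 and 27.5 RPKM in Vhigh, were above all cadherins and claudins with a length in both means.

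Few members were read in every library. With 3 or more counts taken as read, 7 members were read in all 6 libraries (*Cdh2*, *Cdh3*, *Cdh11*, *Cldn25*, *Ctnna1*, *Ctnnb1* and *Ctnnd1*), and 4 were read in none. *Cldn17* and *Cldn20* had no count at all. Of all 24062 genes, 7719 were read in all 6 libraries. The Vmed libraries read 24, 29 and 22 of the 52 members and the Vhigh libraries 14, 40 and 20, that is 46.2, 55.8 and 42.3% and 26.9, 76.9 and 38.5%. The shares of all genes were 53.6, 61.8 and 50.8% and 37.8, 72.4 and 53.4%, with the highest and the lowest share in the same libraries. Thinned to 8296831 counts, they read 24, 29 and 22, and 14, 39 and 19. Of 12 members read in a single library, 9 were read in Vhigh replicate 2 and 3 in Vmed replicate 2. These are the 2 libraries with the most genes, and also those with the most alignments outside genes per gene count. The 9 were *Cdh7*, *Cdh17*, *Cdh18*, *Cdh26*, *Cldn8*, *Cldn14*, *Cldn18*, *Cldn23* and *Cldn26* (now *Tmem114*), none above 47 counts, and they are named after their counts were seen. Of 40 members with 10 or more counts in some library, 32 (80.0%) were at 0 in another, beside 50.1% of all genes.

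The partners of these proteins were described by 5 lists, of which 0 genes had an adjusted p under 0.05 in edgeR's quasi-likelihood test or in DESeq2, and 1, *Btrc*, had an unadjusted p under 0.05 in the former. Of all genes tested, 1.17% had an unadjusted p under 0.05 and were lower in Vhigh, and 0.867% had one and were higher. The medians of the lists stand beside -0.02 over all genes. Of 24 adherens junction partners, 23 were found and 22 tested, with 13 log2 fold changes below 0 and a median of -0.34. Its highest genes were *Iqgap1*, a scaffold of actin and junction proteins, with a log2 fold change of -0.32 ± 0.49 (SE), and *Tln1*, which links integrins to actin, with 0.06 ± 0.90 (SE). Of 26 tight junction partners, 22 were tested and 14 were below 0, with a median of -0.50. The adhesion molecules *F11r* and *Esam* were the highest of them, at -0.44 ± 0.60 (SE) and -0.78 ± 0.60 (SE). In 1 gene of the list, the polarity gene *Pard6b*, every Vhigh library was below every Vmed library, beside 4.71% of all genes. *Pard6b* was named after its values were seen. It had 26.2, 38.6 and 8.44 CPM in Vmed and 0.0938, 6.45 and 0 CPM in Vhigh (log2 fold change -3.66 ± 1.93, SE). Of 12 desmosome genes, 5 were tested. *Dsc2*, a desmosomal cadherin, had a log2 fold change of 0.82 ± 1.44 (SE), and *Dsp*, which encodes desmoplakin, had -2.56 ± 1.87 (SE) with 97.0 CPM in Vmed replicate 2 and 0 to 11.7 CPM elsewhere.

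All 20 genes of β-catenin turnover and its co-factors were tested, with 13 below 0 and a median of -0.23. The kinase genes *Gsk3b* and *Csnk1a1*, whose products phosphorylate β-catenin, were the highest of them, at log2 fold changes of -0.28 ± 0.65 (SE) and 0.49 ± 0.78 (SE). *Btrc*, whose product marks β-catenin for degradation, had 25.2, 69.4 and 58.4 CPM in Vmed and 308, 98.0 and 73.7 CPM in Vhigh (log2 fold change 1.69 ± 0.73, SE; unadjusted p = 0.04624, edgeR quasi-likelihood). It was the 1 gene of the 20 above all Vmed libraries in every Vhigh library, beside 4.15% of all genes. In 2 of the 20 genes every Vhigh library was below every Vmed library, beside 4.71% of all genes. These 2 are named after their values were seen. *Lef1*, a nuclear partner of β-catenin, had 59.4, 31.5 and 42.4 CPM in Vmed and 0.0938, 15.6 and 26.8 CPM in Vhigh. *Axin2*, a known target of the pathway, had 3.32, 3.38 and 4.01 CPM in Vmed and 0.0938, 1.47 and 0.665 CPM in Vhigh. Their unadjusted p were 0.2613 and 0.2850 from edgeR's quasi-likelihood test.

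Among 14 regulators of *Cdh1*, 11 were tested and 7 were below 0, with a median of -0.27. The E-protein genes *Tcf4* and *Tcf3* were the highest. *Tcf4* had 236, 319 and 157 CPM in Vmed and 109.8, 141 and 138 CPM in Vhigh, with no overlap (log2 fold change -0.90 ± 0.47, SE; unadjusted p = 0.08537, edgeR quasi-likelihood). *Tcf4* was the 1 gene of the 11 tested without overlap, beside 4.71% of all genes with every Vhigh library below every Vmed library. *Tcf3* overlapped, with a log2 fold change of 0.41 ± 0.97 (SE).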

How the data were processed

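RNA was sequenced from 3 CD31+ckit+Vmed and 3 CD31+ckit+Vhigh libraries (SMARTer amplification, single reads of 50 bases). TopHat and Bowtie 1.1.2 were used by the authors for alignment against GRCm38/mm10, and they deposited raw read counts per gene, which the submitters' processing notes attribute to HTSeq; the annotation and the strand setting are not given in the sources used here. Lines for alignments not assigned to a gene (54.99 to 77.18% of the alignments listed for a library, repeated alignments included) were left out of library sizes. CPM were computed from the gene totals, and RPKM from exon-union lengths of GENCODE (GRCm38).

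The test between fractions was run in edgeR 4.0.16 under R 4.3.3 (filterByExpr, TMM, quasi-likelihood test, fraction as the only term, Benjamini-Hochberg adjustment at 0.05 over all 12688 genes). Exact two-sided permutation tests used all 20 arrangements of log2(CPM + 0.5). The standard error comes from the fitted information matrix and the quasi-likelihood dispersion. Alternatives covered 3 normalizations (RLE, upper quartile, library size alone), a filter at 10 counts and none, the likelihood ratio test, DESeq2 1.42.0, limma-voom (limma 3.58.1), the replicate number as a block, thinning and each library left out. The replicate numbers come from the labels. Deviations of same-numbered libraries from their fraction means correlated at 0.212, 0.207 and 0.388, and those of differently numbered libraries at -0.289 to -0.006. Deviations from a fraction mean cancel out within the fraction, so positive values for same-numbered libraries go with negative values for the others. The negative values are thus no separate support. On the same-numbered values, the numbers were used to form pairs, and as a block in alternative fits. The main test left the block out, so its p and standard errors do not use the pairing. The labels do not say how replicates were separated, and the study describes its sequencing values as coming from independent experiments, 3 in number. No library repeated another (chi-square per degree of freedom 93.7 or more). Limits from counts cover counting error only.

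Members named with values were the 6 catenins, the 10 cadherins and the 10 claudins with the highest mean CPM, and tested members with an unadjusted p under 0.05 or no overlap. Of each partner list the 2 highest genes and those with an unadjusted p under 0.05 were named, and of marker lists the 2 highest, printed for the lists that touch a member. The members and lists were chosen with earlier results of these data known. Of 267 list symbols, 265 were found.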

Additional observations from a re-analysis of the deposited data

How the results depend on the processing

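In the main setting 0 genes and 0 members had an adjusted p under 0.05. The number of genes was 37 with no filter, 21 with the likelihood ratio test, 51 with DESeq2 and 74 with the likelihood ratio test and the replicate block, and it ranged from 0 to 1 with single libraries left out. DESeq2 called 1 member, *Cdh11*. In the other fits 0 members were called, and the replicate block with the quasi-likelihood test called 0 genes and 0 members. The block changed no other call of a member. With the block, the log2 fold change of *Cdh11* was -4.24 ± 0.93 (SE; unadjusted p = 0.009783, adjusted p = 0.9475, edgeR quasi-likelihood). That of *Ctnna1* was -1.175 ± 0.412 (SE; unadjusted p = 0.03662, adjusted p = 0.9872, same test). For *Cdh3*, *Cdh6* and *Cldn6* the unadjusted p of this test was 0.1129, 0.09392 and 0.08249.

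The number of members without overlap was 4, and it was 4 on TMM-adjusted and 5 on RLE-adjusted library sizes. Leaving out each library, which was added after seeing the data, gave 4 to 9. The 9 came without Vmed replicate 1, where 9.84% of all genes had every Vhigh library below every Vmed library. The log2 ratio of the cadherin sums was -1.12 without *Cdh11* and ranged from -2.18 to -1.45 with single libraries left out. The order by longest transcript shared 9 of 10 genes.

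Of 356 log2 fold changes of 21 named members under alternatives, 323 kept their sign and their side of the threshold, 32 changed sign and 1 passed the threshold; in 11 members none changed sign. *Cdh4* changed to 0.0094 with upper quartile normalization, 0.098 with library size only and 0.029 after thinning. *Cdh8* changed to 0.081 with the replicate block and 0.090 with the block in the likelihood ratio test, where *Ctnnd2* changed to -0.90 and -0.91. With limma-voom, *Ctnnd2* changed to -2.03 and *Cdh24* to 0.029. *Ctnna2* changed to 0.022 with RLE normalization and 0.022 with DESeq2. With single libraries left out, the estimates ranged from -9.03 to 1.92 for *Cdh4*, -1.61 to 1.28 for *Cdh8*, -1.20 to 3.82 for *Cdh24*, -6.76 to 0.46 for *Cldn10*, -2.62 to 0.22 for *Cldn11*, -1.87 to 0.0051 for *Cldn12*, -1.34 to 0.59 for *Ctnna2*, -0.79 to 0.065 for *Ctnnb1*, -0.49 to 0.017 for *Ctnnd1* and -0.84 to 1.38 for *Ctnnd2*. The causes were not tested. *Cdh24* had no p from DESeq2. Counts of 3 or fewer leave the level of a member open at this depth.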
